A study of Homo sapiens with 2 samples.

Results

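Cells with many transcripts of the platelet chemokines made up a small share of the nonadherent cells at day 5 of EHT (endothelial-to-hematopoietic transition) culture. A cell was a member if its unique molecular identifiers (UMIs) for *PF4* and *PPBP* summed to at least 10. By this rule 108 of the 7550 cells kept were members, or 1.43% (95% interval 1.17 to 1.72%). The cells compared with them were the 7442 other cells kept, and among these the 442 globin-positive cells, which had at least 10 UMIs over the globin genes. Because the rule reads *PF4* and *PPBP*, the levels of these genes describe how the cells were chosen and are not a finding.

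The cells came from the human induced pluripotent stem cell line iPS11, a reprogrammed fibroblast line. CD34+ cells made from it were plated on uncoated plates or on plates coated with VCAM1, with the notch ligand DLL4, or with DLL4+VCAM1, all in EHT medium. From each of the 4 coatings 3 wells were combined and stained with an antibody that carries a barcode (a hashtag), and the 4 pools were mixed into 1 droplet library. No source used here ties a hashtag to its coating, so pools are given by hashtag number. A single cell line in a single library was measured, without replicates. No p-value was therefore computed, and no difference below has a replicate check. The members held 2173394 UMIs, with 934608 in hashtag 0252, 883063 in hashtag 0253, 178683 in hashtag 0254 and 177040 in hashtag 0255. The median was 19309 UMIs per member and 18296.5 per other cell. Levels are CPM, a gene's summed UMIs scaled to 1000000 UMIs of its group, with exact Poisson 95% intervals in parentheses, and shares have exact Clopper-Pearson intervals. Where a count was 0, the limit is given as that of 3 counts. All cover counting error only, and since the library is 3'-tagged, levels are compared between cells and not between genes. Where a gene is called the most abundant of a list, this refers to its UMI count alone.

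Megakaryocytes are large, polyploid bone marrow cells that shed platelets, and they share a bipotent progenitor with red cells. They fill alpha granules with proteins that platelets release on activation, among them platelet factor 4 (*PF4*) and pro-platelet basic protein (*PPBP*), 2 CXC chemokines whose genes lie side by side. GATA1, FLI1 and their partners drive the genes of the lineage, and a marginal band of microtubules built with the beta-1 tubulin *TUBB1* gives platelets their disc shape.

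On hg19, *PPBP* (ENSG00000163736) lies on the minus strand of chromosome 4 from 74852156 to 74853907. *PF4* (ENSG00000163737) lies on the same strand from 74846528 to 74847744, 4411 bases away. The 250 bases before the start of *PPBP* and of 4 megakaryocyte genes that were high in the members are shown because these genes were found together in the same cells. They are RefSeq sequence on GRCh38.p14, written 5' to 3' on the strand of the gene, and capitals mark GATAA, the core of a GATA factor site, and GGAAG, the core of an ETS factor site, on either strand (TTATC or CTTCC when reversed). The windows are chr4:73988191-73988440 (minus strand) for *PPBP*, chr17:44389650-44389899 (minus) for *ITGA2B*, chr3:129060529-129060778 (plus) for *GP9*, chr20:59019179-59019428 (plus) for *TUBB1* and chr2:68365032-68365281 (plus) for *PLEK*.
PPBP: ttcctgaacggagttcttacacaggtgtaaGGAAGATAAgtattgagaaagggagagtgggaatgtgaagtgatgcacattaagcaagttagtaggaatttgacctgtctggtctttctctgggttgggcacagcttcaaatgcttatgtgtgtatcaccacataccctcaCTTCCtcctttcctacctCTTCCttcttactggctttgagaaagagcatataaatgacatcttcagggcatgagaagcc
ITGA2B: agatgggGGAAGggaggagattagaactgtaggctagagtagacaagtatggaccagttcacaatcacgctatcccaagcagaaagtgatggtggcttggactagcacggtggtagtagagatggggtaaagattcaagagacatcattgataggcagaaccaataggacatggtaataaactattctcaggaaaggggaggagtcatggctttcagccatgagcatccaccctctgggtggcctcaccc
GP9: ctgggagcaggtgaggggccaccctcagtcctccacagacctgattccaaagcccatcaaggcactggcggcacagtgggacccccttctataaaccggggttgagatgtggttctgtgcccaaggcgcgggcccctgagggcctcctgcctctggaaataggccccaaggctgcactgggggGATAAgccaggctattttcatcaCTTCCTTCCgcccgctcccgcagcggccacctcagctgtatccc
TUBB1: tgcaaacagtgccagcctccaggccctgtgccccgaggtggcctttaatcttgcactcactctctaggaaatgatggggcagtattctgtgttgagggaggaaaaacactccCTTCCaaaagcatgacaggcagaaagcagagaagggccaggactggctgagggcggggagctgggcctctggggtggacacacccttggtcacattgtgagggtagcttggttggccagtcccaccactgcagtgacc
PLEK: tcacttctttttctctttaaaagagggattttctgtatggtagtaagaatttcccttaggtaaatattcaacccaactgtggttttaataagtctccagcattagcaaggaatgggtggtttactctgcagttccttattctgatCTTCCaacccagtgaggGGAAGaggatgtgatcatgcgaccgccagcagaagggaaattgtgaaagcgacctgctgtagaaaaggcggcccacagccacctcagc

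In these windows *PPBP* had 1 GATAA and 3 GGAAG, and the GATAA, 216 bases before the start, overlapped a GGAAG. *GP9* had 1 GATAA and 2 GGAAG on the reverse strand that overlap by 1 base. *ITGA2B* and *TUBB1* had 1 GGAAG each, *PLEK* had 2, and none of these 3 windows held GATAA. Over 35116 promoter windows of the same length, 20.4% held GATAA, 65.1% GGAAG and 12.1% both, so a match to these short motifs is common.

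Most of the chemokine signal was *PPBP*. Its counts per member ran from 7 to 524 UMIs with a median of 37, and 107 of the 108 members passed the limit on *PPBP* alone. The members held 6907 of the 7627 *PPBP* UMIs of all cells kept (90.6%). Pooled by hashtag, *PPBP* in members was 3401 CPM in hashtag 0252, 3338 in 0253, 1880 in 0254 and 2508 in 0255. *PF4* was sparse. It had 68 UMIs in 16 members, and the 3 highest cells, with 18, 15 and 14 UMIs, held 69.1% of them. By hashtag *PF4* was 56.7, 11.3, 0 and 28.2 CPM in the same order. The label of these cells by both chemokines thus rests on *PPBP* in nearly every cell. The last 500 bases of *PF4* share none of 451 windows of 50 bases with its near copy *PF4V1*, and those of *PPBP* share none with *PF4*.

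Away from the members, chemokine counts were mostly 0 or 1. Of the cells kept, 6925 had no UMI of *PF4* or *PPBP*, 432 had 1, 58 had 2 to 4 and 27 had 5 to 9. The members were 30 cells with 10 to 19 UMIs, 35 with 20 to 49, 24 with 50 to 99, 13 with 100 to 199 and 6 with more. The limit of 10 cut through a continuous tail. The 13 members with 10 to 12 UMIs had 442 CPM of *ITGA2B*, 150 of *TUBB1* and 1298 of *PLEK*, and 11 of them were globin-positive. The 18 cells just outside, with 7 to 9 UMIs, had 519, 206 and 1702 CPM of the same genes, and 17 were globin-positive. *CLEC1B* was 75.1 CPM just inside and 97.4 just outside. Cells with a lone UMI had 98.1, 13.6 and 160 CPM.

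The other megakaryocyte markers were set beside the label. *ITGA2B*, *TUBB1* and *PLEK* were given together with the rule, and the markers were chosen with earlier results of these data known. Their levels thus describe the members and are no independent check of the label. Of 10 markers besides the chemokines, 9 were detected in the members and *GP1BB* was at 0 in members and in all other cells. At least 10 UMIs of these markers were found in 106 of 108 members (98.1%, 93.5 to 99.8%), against 570 of the 7442 other cells (7.66%) and 310 of the 442 globin-positive cells (70.1%). The markers summed to 2967 CPM in members, 1230 in globin-positive cells and 222 in all other cells, and to 2972, 2865, 2865 and 3547 CPM in members of hashtags 0252 to 0255. *PLEK* was the most abundant of them by count.

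Membership went along with the number of marker UMIs. Of the 1318 cells without a UMI of the 10 markers 0 were members, which allows a share of up to 0.228%, and of 4564 cells with 1 to 4 there was 1. The share was 1 of 294 cells with 10 to 19 marker UMIs (0.340%) and 41 of 252 with 20 to 49 (16.3%, 11.9 to 21.4%). It was 52 of 114 with 50 to 99 (45.6%, 36.3 to 55.2%) and 12 of 16 with 100 or more (75.0%, 47.6 to 92.7%). Most cells with clear marker counts were thus not members, since 570 of the 676 cells with at least 10 marker UMIs fell below the chemokine limit. A UMI of either chemokine was found in 4.63% of cells with no marker UMI, at a median depth of 15047 UMIs, in 39.7% of cells with 20 to 49, at 18817.5 UMIs, and in all 16 of the highest class, at 27857.5 UMIs. The share was 5.67, 6.75 and 10.9% in cells with 1 to 4, 5 to 9 and 10 to 19 marker UMIs, at 18327, 20997 and 20983 UMIs. It was 78.9% in cells with 50 to 99, at 22529.5 UMIs. Median depth was thus lowest in the first marker class and highest in the last, though it did not rise at each step. The classes and the chemokine limit are both raw UMI counts, and the part of depth in these shares was not tested.

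**Figure D1:**
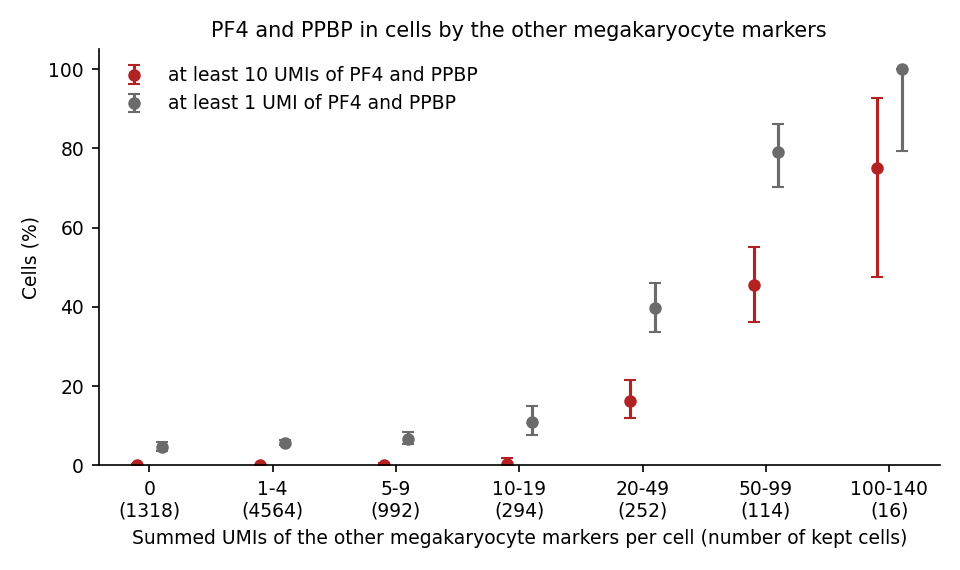
Share of cells, in percent with exact 95% intervals, that were members (red) or had any UMI of *PF4* and *PPBP* (gray), by the summed UMIs of 10 other megakaryocyte markers per cell. The share of members was under 1% below 20 marker UMIs and 75.0% in the 16 cells with 100 or more.

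All genes were compared between the members and the 7442 other cells on the log2(CPM + 1) scale, and a gene was called when its fold on that scale was at least 2. *PF4* and *PPBP* were left out. Of the 8362 genes with at least 10 CPM in either group, 688 were called higher in members (8.23%) and 1006 lower (12.0%), and the median log2 ratio of all genes was -0.26. Without the limit on UMIs and genes per cell 572 were higher and 262 lower, and with genes from 50 CPM 330 and 219, so the larger number changed sides. 7 lists of megakaryocyte and platelet genes had 177 genes compared, of which 113 were higher and 8 lower, with a median log2 ratio of 1.58. Members were higher, by any amount, in 4 of 4 hashtags for 125 of these 177 genes and for 1302 of all 8362.

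Among alpha granule proteins, 16 of 22 genes compared were higher and 1 was lower, with a median log2 ratio of 2.79. *THBS1* (ENSG00000137801, chromosome 15, 39873280 to 39891667), the adhesive protein thrombospondin, was 758, 742, 767 and 808 CPM in members of hashtags 0252 to 0255. In other cells of the same hashtags it was 30.9, 36.6, 14.6 and 10.3 CPM, so the pools of members and of other cells did not overlap. Summed, it was 756 CPM (720 to 793) against 24.2, a fold of 30.0. *SELP*, the P-selectin that moves from the granule membrane to the platelet surface, was 230 CPM (210 to 251) against 8.41, and lay between 168 and 241 CPM in the 4 pools of members. *F13A1*, the A subunit of clotting factor XIII, was 144 CPM (129 to 161) against 2.47. *LTBP1*, which binds latent TGF-beta, was 357 against 14.6 CPM, *MMRN1*, the factor V carrier multimerin, 185 against 11.05, and *TGFB1* 538 against 127. *NRGN*, a calmodulin-binding protein found in platelets, was 475 against 39.1 CPM. Less abundant members of the list were also higher, with *CCL5* at 23.9 against 0.622 CPM and the growth factor subunit *PDGFB* at 20.2 against 0.350. Of the 22 genes 5 were within 2-fold, *SRGN*, *SPARC*, *VEGFA*, *A2M* and *SERPINE2*, and 10 of the 32 genes listed were not compared. The proteoglycan core *SRGN* was 304 against 400 CPM, *SPARC* 35.0 against 38.4, and *GAS6* was the gene called lower. The von Willebrand factor gene *VWF* had under 10 CPM in both groups and was not compared.

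Several neighbors of *PPBP* in the CXC chemokine cluster were also higher. *CXCL3* was 216, 166, 146 and 243 CPM in members of hashtags 0252 to 0255, against 11.3, 11.1, 4.43 and 3.99 CPM in other cells. *CXCL2* was 60.3 against 4.88 CPM and *CXCL1* 22.1 against 2.62, with no UMI of *CXCL1* in the members of hashtag 0254. *PF4V1* was 11.5 against 0.100 CPM. In globin-positive cells outside the members, *CXCL3* and *CXCL2* were 58.2 and 25.4 CPM, also above all other cells. *CXCL1* and *PF4V1* were 1.64 and 0.984 CPM there. *CXCL6* and *CXCL5*, at 7.36 and 3.68 CPM in members and 0.293 and 0.0715 in other cells, were under the limit for comparison and had no UMI in members of hashtag 0254. *MTHFD2L*, the next gene of another family, was 76.8 against 56.6 CPM. *PF4V1* was found in 9 members and at most 7 UMIs, so its level rests on few cells.

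Adhesion receptors followed with 16 of 22 genes higher, 2 lower and a median log2 ratio of 2.79. *ITGA2B* (ENSG00000005961, chromosome 17, 42449548 to 42467017), the alpha chain of the fibrinogen receptor, was 519, 501, 504 and 429 CPM in members of hashtags 0252 to 0255 and 81.4, 72.0, 69.7 and 47.4 CPM in other cells. It was thus 7.19-fold higher, at 503 CPM (474 to 534). Its partner *ITGB3* was 129 CPM (114 to 145) against 4.01. *GP9* (ENSG00000169704, chromosome 3, 128779622 to 128781249), of the von Willebrand factor receptor, was 448 CPM (420 to 477) against 21.1, and lay between 414 and 486 CPM in the 4 pools. *GP1BA* of the same receptor was 160 CPM (143 to 177) against 5.93. With the pseudocount of 1 CPM, *CLEC1B*, the podoplanin receptor CLEC-2, had the largest ratio of the genes named by rank. *CLEC1B* was 170 CPM (153 to 188) against 1.20, a fold of 77.6 on that scale. It was 138, 185, 190 and 243 CPM in the 4 pools of members. *TREML1*, stored in alpha granules, was 46.5 against 1.21 CPM, the collagen receptor *GP6* 23.9 against 0.386 and the tetraspanin *CD9* 212 against 24.9. *CD36* was called lower, at 5.98 against 19.5 CPM.

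A UMI of *ITGA2B* was found in 99.1% of members and 42.0% of other cells, *TUBB1* in 95.4 and 4.66%, *PLEK* in 99.1 and 63.3%, and *CLEC1B* in 69.4 and 1.18%. After each cell was thinned to 5000 UMIs, which left out 2 members, the shares were 85.8 and 21.4% for *ITGA2B*, 65.1 and 2.11% for *TUBB1*, 96.2 and 30.7% for *PLEK* and 41.5 and 0.502% for *CLEC1B*. A UMI of *CLEC1B* was in 13.1% of globin-positive cells outside the members, and it was not seen in every member even at full depth. Per cell, the median member had 9 UMIs of *ITGA2B* (0 to 35), 5 of *TUBB1* (0 to 26), 23 of *PLEK* (0 to 71) and 12 of *THBS1* (0 to 66).

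Of the receptors for soluble signals, 9 of 12 were higher and 1 was lower, with a median log2 ratio of 1.90. The thrombin receptors *F2R* and *F2RL3* were 344 against 56.7 CPM and 70.9 against 4.07 CPM, and the cofactor *F2RL2* was 126 against 8.68. The adrenergic receptor *ADRA2A* was 28.1 against 2.08 CPM and the thromboxane receptor *TBXA2R* 45.6 against 10.6. The ADP receptor *P2RY12* had 0 UMIs in members, which allows up to 1.38 CPM, and *P2RY1* was below the limit for comparison. *TNFRSF1B* was the gene called lower.

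Cytoskeletal genes had 25 of 35 higher, 1 lower and a median log2 ratio of 1.52. *TUBB1* (ENSG00000101162, chromosome 20, 57594484 to 57601709) was 271, 281, 330 and 153 CPM in members of hashtags 0252 to 0255, and 7.65, 7.77, 3.16 and 1.98 CPM in other cells. Its fold was 42.2, at 270 CPM (249 to 293) against 5.42. The myosin light chain kinase *MYLK* was 262 CPM (241 to 284) against 9.41, talin (*TLN1*) 1099 against 230, kindlin-3 (*FERMT3*) 780 against 122, and *GSN* 572 against 130. *TMSB4X*, which encodes the actin-sequestering thymosin beta-4, was 11885, 14937, 17875 and 22210 CPM in the 4 pools of members and 3863 to 5347 CPM in other cells. The ubiquitous tubulin gene *TUBB* was not called, at 638 against 920 CPM, and the actin-capping *CAPG* was the gene called lower.

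Signaling and granule machinery had 36 of 47 genes higher and 0 lower, with a median log2 ratio of 1.78. *PLEK* (ENSG00000115956, chromosome 2, 68592414 to 68624585), pleckstrin, the main protein kinase C substrate of platelets, was 1456, 1217, 1310 and 1932 CPM in the pools of members and 135, 150, 83.6 and 73.7 CPM in other cells. Its fold was 12.1. *RAP1B*, the small GTPase of integrin activation, was 992 CPM (951 to 1035) against 118, the adaptor *LAT* 433 against 50.7, *GRAP2* 50.6 against 2.31, the G protein subunit *GNG11* 195 against 22.5 and *CMTM5* 722 against 45.3. The organic anion transporter *ABCC3* was 120 against 2.10 CPM. The monoamine transporter of dense granules, *SLC18A2*, was not called, at 5.52 against 11.7 CPM.

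Of 23 transcription factor genes 11 were higher and 3 lower, with a median log2 ratio of 0.96. *GATA1* was 313 CPM (290 to 337) against 59.9, *GFI1B* 179 (161 to 197) against 22.9, *TAL1* 202 against 39.9, *FLI1* 117 against 27.6, *NFE2* 217 against 81.7 and *MEIS1* 79.6 against 15.9. *GFI1B* lay between 169 and 182 CPM in the 4 pools of members and between 17.9 and 28.4 in other cells. The genes called lower were *GATA2* at 42.8 CPM (34.5 to 52.4) against 123, *MYB* at 11.04 against 46.9 and *ERG* at 1.38 against 15.4, all known for roles in stem and progenitor cells. *RUNX1* was not called, at 95.7 against 75.9 CPM.

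More cell cycle genes were called lower than higher. Called higher and lower were 10.0 and 40.0% of the cell division list and 0 and 36.7% of the S phase list. Over all genes compared the shares were 8.23 and 12.0%. Of 30 genes of cell division and polyploidy 3 were higher, the cyclins *CCND1* at 76.4 against 12.5 CPM and *CCND3* at 601 against 153, both of which serve the entry into the cycle, and the inhibitor *CDKN1C* at 628 against 129. Another 12 were lower, among them *TOP2A*, at 136 CPM (121 to 152) against 298, and the list's median log2 ratio was -0.91. Of 30 S phase genes 11 were lower and 0 higher, with a median of -0.86. *MKI67* was not called, at 87.0 against 163 CPM. *TOP2A* was 122, 110, 420 and 50.8 CPM in the pools of members and 282 to 317 CPM in other cells, so hashtag 0254, with 7 members, stood above the rest. Genes of thrombopoietin signaling and receptor shedding were near level, with 2 of 18 higher, 0 lower and a median of 0.06. The limit on UMIs and genes per cell left out 37 single-hashtag barcodes that met the chemokine rule. In these 37, *TOP2A* was 282 CPM (259 to 306), *MKI67* 166 and *CDKN1C* 181. The other barcodes over the limit had 485, 241 and 111 CPM of the same genes. The part of the limit in the low cell cycle levels of members was not tested.

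**Figure D2:**
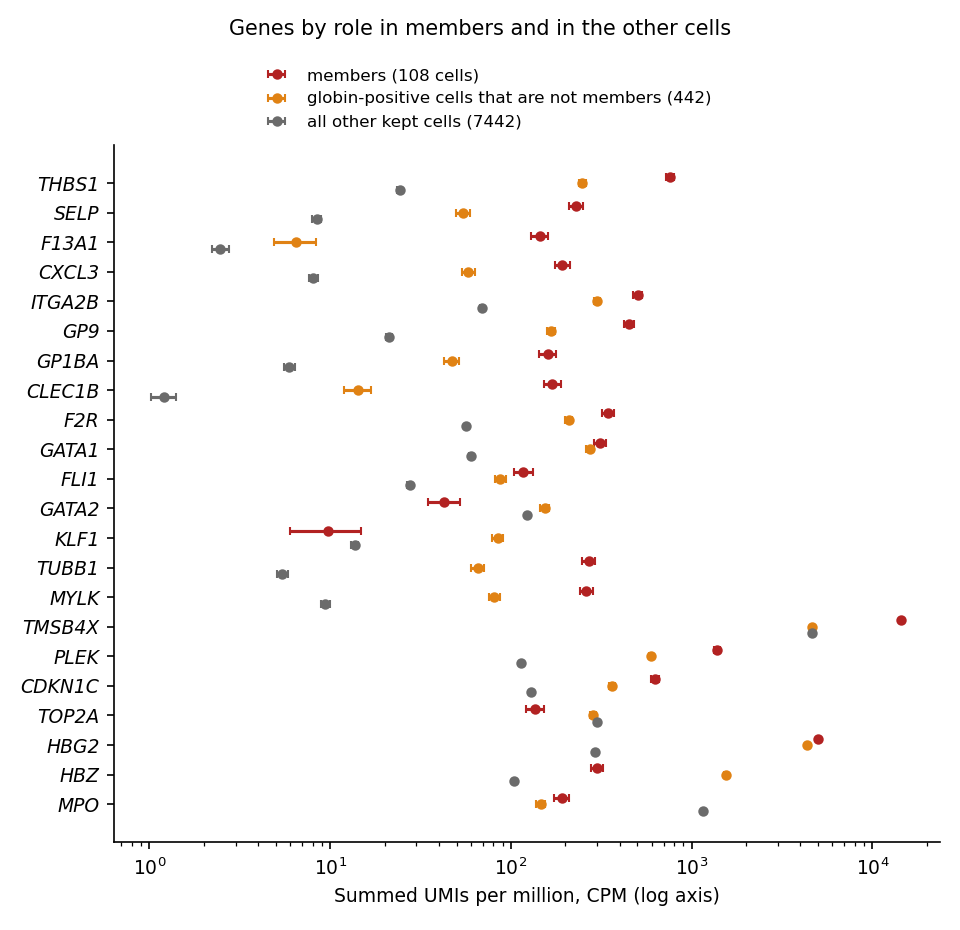
Summed level of 22 genes, in CPM on a log axis with exact Poisson 95% intervals, in the 108 members (red), the 442 globin-positive cells (orange) and the 7442 other cells, which include the globin-positive ones (gray). For *ITGA2B*, *GP9*, *TUBB1* and *PLEK* the globin-positive cells lay between the other groups, while for *TMSB4X* they lay at the level of all other cells and for *KLF1* and *HBZ* above the members.

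Among genes with at least 20 CPM in members and a UMI in at least 10% of them, the 25 highest by log2 ratio were higher in 4 of 4 hashtags, which their choice by the pooled ratio largely fixes. Of these, 12 were in the megakaryocyte lists and 1 was the globin gene *HBE1*. The lists hold 177 of the 8362 genes compared, but under another filter, so the 2 counts do not give an enrichment. After *CLEC1B* came *TMEM40*, a membrane protein gene, at 113 CPM (99.0 to 128) against 0.822, the heparanase gene *HPSE* at 152 (136 to 170) against 2.48, and *LGALSL* at 362 (337 to 388) against 7.47. *HEMGN*, a nuclear protein of blood cells, was 174 CPM (157 to 193) against 5.63, and the neurotrophin gene *BDNF*, whose protein platelets store, was 47.9 CPM (39.1 to 58.0) against 0.622. *LYVE1*, a hyaluronan receptor, was 35.4 against 0.136 CPM but was found in 15 members, and its 5 highest cells held 76.6% of its UMIs.

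Genes of the myeloid and lymphoid lineages were mostly lower, while 13 of 25 erythroid genes compared were higher and 0 lower, with a median log2 ratio of 1.07. The 10 lowest genes among those with at least 50 CPM in other cells included the eosinophil genes *PRG3*, *CLC* and *EPX*. The neutrophil granule genes *PRTN3* and *AZU1* and the lymphoid genes *CD3D*, *LTB* and *IGLL1* were also among them. None of the 10 was higher in members in any hashtag, which their choice by the pooled ratio largely fixes. *PRTN3* was 109 against 1067 CPM, *CLC* 11.5 against 157 and *CD3D* 3.68 against 64.9. Without the limit on UMIs and genes per cell, *PRTN3*, *AZU1* and *CLC* were no longer called, at log2 ratios of -0.69, -0.63 and -0.18, while *CD3D* was -2.58. Neutrophil genes were 8 of 10 lower, with a median log2 ratio of -2.66, and 7 members (6.48%) had at least 10 UMIs of 7 neutrophil markers, against 25.8% of other cells. *MPO* was their most abundant marker, at 199, 240, 56.0 and 39.5 CPM in members, and *CTSG* was at 0. HLA class II genes were 6 of 7 lower, eosinophil genes 6 of 6 and macrophage genes 7 of 11. Over all genes compared 8.23% were higher and 12.0% lower. The counts of the lists were not recomputed without the limit on UMIs and genes per cell. The macrophage list also had 1 gene higher, *TYROBP* at 597 against 292 CPM, and summed to 2326 CPM in members and 1853 in other cells, with *AIF1* the most abundant in members at 1392 against 732. Of 8 macrophage markers, *SPP1* was the most abundant, at 86.5 CPM, *CD163* and *MRC1* were at 0, and 10 members (9.26%) had at least 10 UMIs in all, against 12.4% of other cells. The macrophage markers summed to 141, 179, 935 and 56.5 CPM in members of hashtags 0252 to 0255, and 1 cell held 54.8% of the *SPP1* UMIs. Their part in the results for hashtag 0254 was not tested. No member had 10 UMIs of the mast cell and basophil, stromal or lymphoid markers, which allows a share of up to 2.78% for each. In other cells the shares were 1.83, 1.36 and 5.21%. Those of the mast cell and basophil and of the stromal markers lie within that limit. The defining genes *TPSAB1*, *MS4A2* and *COL1A1* were at 0 and the most abundant of each list were *HDC* at 23.0, *COL1A2* at 5.52 and *CD7* at 58.0 CPM. The 5 endothelial markers summed to 248 CPM in members and 212 in other cells, nearly all from *EGFL7*. Progenitor markers reached 10 UMIs in 17 members (15.7%) and 39.1% of other cells, and *CD34* was 122 CPM in members and 116 in other cells.

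Scrublet, which scores barcodes against simulated doublets, called 1 of the 108 members (0.926%) and 62 of the 7442 other cells (0.833%). The median member had 3947.5 genes, 14.0% mitochondrial UMIs and 1667 hashtag UMIs, against 4198 genes, 13.1% and 1249 in other cells. Each barcode had a single hashtag call, so none could be shared between hashtags, and this is no check for doublets.

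Globin transcripts were the rule in the members. At least 10 globin UMIs were found in 102 of 108 (94.4%, 88.3 to 97.9%), against 442 of 7442 other cells (5.94%, 5.41 to 6.50%), and at least 50 in 86 members (79.6%). This was not particular to the members. Of all cells kept, members included, 187 of 252 with 20 to 49 UMIs of the other megakaryocyte markers were globin-positive (74.2%). So were 110 of 114 with 50 to 99 (96.5%) and all 16 with 100 or more. The median member had 146.5 globin UMIs, with a range of 4 to 3127, and the median globin-positive cell outside the members had 65. Globin-positive cells were chosen by their globin UMIs, so their globin levels describe in part how they were chosen. Globin values of members set beside them are a description only. By hashtag the median was 123, 161.5, 208 and 173.5 globin UMIs per member, so each pool of members was well above the median of 1 in other cells. Conversely, 102 of the 544 globin-positive cells kept were members (18.8%, 15.6 to 22.3%). In the pool, globin was 11440 CPM in members and 10933 CPM in the globin-positive cells.

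The pooled sums were close, but by hashtag globin was 12090, 11312, 9229 and 10879 CPM in members and 5841, 9538, 19458 and 14658 CPM in globin-positive cells. The sums of members were thus higher in hashtags 0252 and 0253 and lower in 0254 and 0255. Medians per cell were higher in members in each of the 4 hashtags. They were 123, 161.5, 208 and 173.5 globin UMIs in members and 51, 57.5, 97 and 72 in globin-positive cells. The gamma globin gene *HBG2* was 5008 CPM (4915 to 5103) in members and 4352 (4309 to 4395) in globin-positive cells. Reads of *HBG1* and *HBG2* cannot be split with certainty. Of 451 windows of 50 bases in the last 500 bases of *HBG1*, 61.4% are also in *HBG2*. Embryonic epsilon globin (*HBE1*) was 1054 against 541 CPM, but in hashtag 0254 it was lower in members, at 280 against 947 CPM. Embryonic zeta globin (*HBZ*) went the other way, at 300 CPM (277 to 323) against 1542 (1517 to 1568). *HBZ* was 173, 333, 811 and 282 CPM in members of hashtags 0252 to 0255 and 279, 1097, 3608 and 2951 CPM in globin-positive cells, so it was lower in members in each of the 4 hashtags, while the pools overlapped. Both embryonic genes rested on few members: 17 had at least 10 UMIs of *HBE1* and 9 of *HBZ* (8.33%, against 16.7% of globin-positive cells), and the 5 highest members held 58.2% and 81.3% of the UMIs. Adult beta globin (*HBB*) was 5.06 against 16.2 CPM. Delta globin (*HBD*) made up 18.3% of the globin UMIs in members and 17.3% in globin-positive cells. Its medians were 21 and 22 UMIs per cell, and it was found in 93.5 and 97.3% of the cells.

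**Figure D3:**
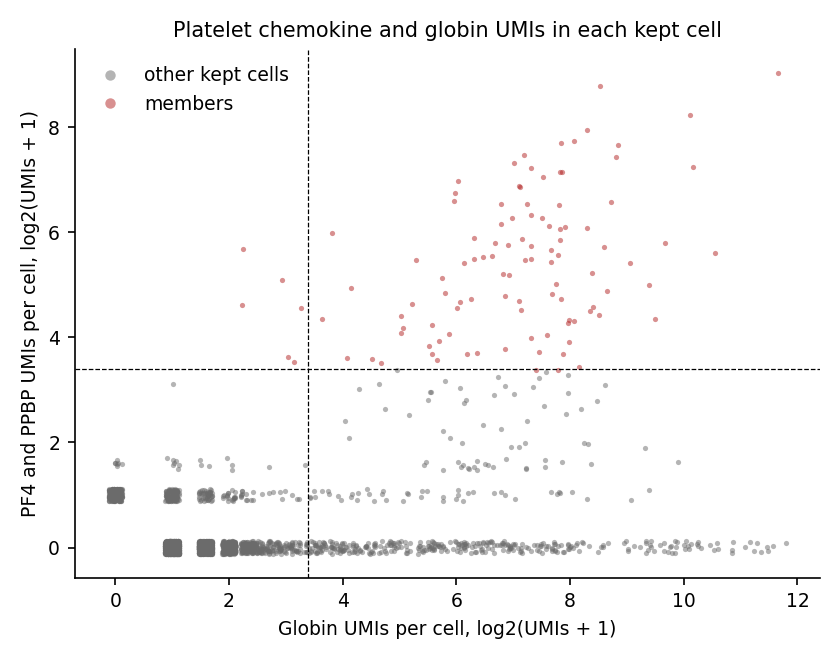
Each point is a kept cell with a UMI of either kind, with its globin UMIs across and its *PF4* and *PPBP* UMIs upward, both as log2(UMIs + 1) and jittered, and dashed lines at the limits of 10 UMIs. Of the 108 members (red), 102 lie to the right of the globin limit, and 442 other cells (gray) lie right of it and below the chemokine limit.

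The comparison of members with globin-positive cells was laid out for members with fewer than 10 globin UMIs, but only 6 members met that condition, with 130857 UMIs in all, where 1 UMI is worth 7.64 CPM. In it 1194 of 8368 genes were higher (14.3%) and 1181 lower (14.1%), in nearly equal numbers. Among genes with at least 50 CPM in the higher group, those with the largest ratios were, by count, *C1QC* with 16 UMIs, *F13A1* and *A2M* with 13 each, *KAZN* with 11, *CTTN* with 9 and *BDNF* with 8. *C3*, *CEBPA*, *CCDC92* and *CD69* had 7 each. *F13A1* was 99.3 CPM (52.9 to 170) in these 6 cells and 6.45 in globin-positive cells, and its log2 ratio turned to -2.89 without hashtag 0253, as did those of *A2M* (-0.58) and *CEBPA* (-2.82). The member that Scrublet called a doublet is 1 of these 6, and without Scrublet calls the log2 ratio of *C1QC* was 0.91 in place of 4.38. *SFRP5*, *PDLIM4*, *PLIN2*, *GAR1* and *SECISBP2* had no UMI in the 6 members, which allows up to 22.9 CPM (3 UMIs), and 52.9 to 96.1 CPM in globin-positive cells. *ITM2A*, *BNIP3L*, *SOCS1* and *GAD1* had 1 or 2 UMIs. These cells are too few for more than a list.

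All 108 members were therefore also set against the 442 globin-positive cells, a comparison added after the small number of members without globin was seen. Here 319 of 7863 genes were higher in members (4.06%) and 240 lower (3.05%), with a median log2 ratio over all genes of -0.11. Of the megakaryocyte lists, 65 of 173 genes were higher and 4 lower, with a median of 0.72. The counts were 12 of 21 alpha granule genes, 11 of 21 adhesion receptors, 18 of 35 cytoskeletal genes, 22 of 47 signaling genes, 3 of 12 signal receptors and 1 of 22 transcription factors. Of the 4 genes lower, 3 were transcription factors and 1 was cytoskeletal. The transcription factor called higher was *GFI1B*, at 179 against 78.8 CPM. Markers of other cells moved with this comparison. At least 10 UMIs of macrophage markers were in 9.26% of members and 1.13% of globin-positive cells, of endothelial markers in 11.1 and 2.04%, and of neutrophil markers in 6.48 and 4.52%, and 3 of 10 macrophage genes and 3 of 7 neutrophil genes were called higher. Their part in the result was not tested.

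Many markers were also present in the globin-positive cells, at lower pooled levels, which do not tell a lower level in each cell from a mixture of cells. *ITGA2B* was 503 CPM in members and 299 (288 to 310) in globin-positive cells, *PLEK* 1386 and 593, *GP9* 448 and 167, *TUBB1* 270 and 65.5, and *THBS1* 756 and 248. *GATA1* was nearly level, at 313 and 272 CPM. *PLEK* in globin-positive cells was 678, 726, 347 and 383 CPM by hashtag, below every pool of members. *TUBB1* in them was 70.2, 80.5, 43.4 and 46.8 CPM, also below every pool of members. Presence followed: *TUBB1* was in 50.7% of globin-positive cells, at a median of 19668 UMIs, and in 25.5% after thinning.

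Other genes had larger ratios. *F13A1* was 144 CPM against 6.45 (4.91 to 8.32), *CLEC1B* 170 against 14.2 (11.9 to 16.9), and *TMEM40* 113 against 9.51. *CD9* was 212 CPM against 23.7 (20.7 to 27.1), and at 160 to 319 CPM in the 4 pools of members it lay above the 20.3 to 30.0 CPM of globin-positive cells. *TMSB4X* was 14459 CPM (14299 to 14619) in members and 4614 (4570 to 4658) in globin-positive cells, which was close to the 4605 CPM of all other cells. The carbonic anhydrase gene *CA2* was 74.5 against 14.9 CPM and *GNG11* 195 against 32.1. *TFPI2* led the list at 73.6 against 2.08 CPM, but it was seen in 2 members, with 128 and 32 UMIs.

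Several red cell genes were lower in the members than in globin-positive cells, whereas none of the erythroid list was called lower against all other cells. Of 27 erythroid genes compared, 9 were lower, 3 higher (*CA2*, *HEMGN* and *CR1L*), and the median log2 ratio was -0.49. The erythroid factor *KLF1* (ENSG00000105610, chromosome 19, 12995236 to 12998015) was 5.35, 14.7, 16.8 and 0 CPM in members of hashtags 0252 to 0255, and 53.0, 51.0, 162 and 139 CPM in globin-positive cells. No pool of members reached a pool of globin-positive cells, and the sums were 9.66 CPM (5.98 to 14.8) and 84.6 (78.8 to 90.8). *GYPB* was 259 against 587 CPM and the transferrin receptor *TFRC* 46.9 against 128. *AHSP* was at 0 in members. *GATA2*, *HDC* and *CYTL1*, the last a cytokine-like gene of CD34+ cells, were also lower, at 42.8 against 154, 23.0 against 143 and 68.1 against 290 CPM. The nonmuscle myosin *MYH10* was 12.0 against 58.5 CPM, whereas *MYH9*, the myosin of platelets, was 496 against 226. *TAGLN*, a stromal marker, was 1.84 against 59.5 CPM, or 2.00 against 18.6 without hashtag 0255, and 12 of the globin-positive cells (2.71%) had at least 10 UMIs of stromal markers, so part of that group carried stromal genes.

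Among the members, chemokine counts and other genes were set side by side in 4 classes, of 30 members with 10 to 19 UMIs of *PF4* and *PPBP*, 35 with 20 to 49, 24 with 50 to 99 and 19 with 100 or more. Median depths were 17601, 21214, 17631 and 21262 UMIs. The classes mixed the hashtags differently, with 14, 18, 4 and 11 members of hashtag 0252 and 11, 12, 14 and 7 of 0253. Hashtag 0254 gave 3, 0, 4 and 0 members and 0255 gave 2, 5, 2 and 1. Values by class within a hashtag are not given, and the part of the mix was not tested. *F13A1* was 26.0, 79.0, 150 and 407 CPM from the lowest to the highest class, *CLEC1B* 99.0, 113, 242 and 282, and *TUBB1* 212, 226, 300 and 391. The 3 genes were higher in each class than in the one before, but the intervals of neighboring classes overlapped for *TUBB1* at each step and for *CLEC1B* at the first and the last step, while those of *F13A1* did not overlap. A UMI of *F13A1* was in 61 members, and the 5 highest held 36.7% of its UMIs. *THBS1* was 686, 643, 823 and 967 CPM and *ITGA2B* 464, 452, 491 and 656. *PLEK* was 1472, 1278, 1213 and 1639 CPM and *GATA1* 309, 291, 334 and 332, without an order. Globin genes summed to 6796, 8108, 13254 and 21363 CPM, and *HBG2* alone to 2302, 3001, 5867 and 11120. A single cell held 34.7% of the globin UMIs of the highest class, and the 3 highest cells held 60.6%. With the highest cell of each class left out, the sums were 5857, 7240, 10955 and 14653 CPM and *HBG2* 1823, 2707, 4366 and 7213. The medians were 63, 117, 170.5 and 223 globin UMIs per cell. S phase genes summed to 1945, 1665, 1633 and 1175 CPM.

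Over the 106 members with at least 5000 UMIs, each thinned to that depth, the Spearman coefficient with the chemokine count was 0.418 for the globin sum, 0.322 for *ITGA2B*, 0.299 for *TUBB1*, 0.228 for *CLEC1B*, 0.147 for *GP9* and 0.0880 for *PLEK*. It was -0.0284 for *CD34* and -0.0990 for *KLF1*. These cells share a library and the coefficients are a description of them. By rank, the genes highest in the top class over the lowest were *TFPI2*, *LYVE1*, *F13A1*, the cell cycle inhibitor gene *CDKN1A* at 59.2 against 3.47 CPM, and *LINC00672* at 56.9 against 3.47. The globin gene *HBA2*, the tetraspanin *CD82*, *CXCL1*, *RP11-367G6.3* and *USP18* followed. The genes lowest in the top class were *C1QC*, at 7.11 against 83.3 CPM, *HIST1H1D*, at 7.11 against 67.7, and *SPP1*, at 28.4 against 186, with *C1QC* and *SPP1* both macrophage markers. Both markers rested on few cells. A single member, which falls in the lowest class, held 103 of the 188 *SPP1* UMIs, and without it the direction for *SPP1* turns. The 5 highest members held 90.6% of the *C1QC* UMIs.

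**Figure D4:**
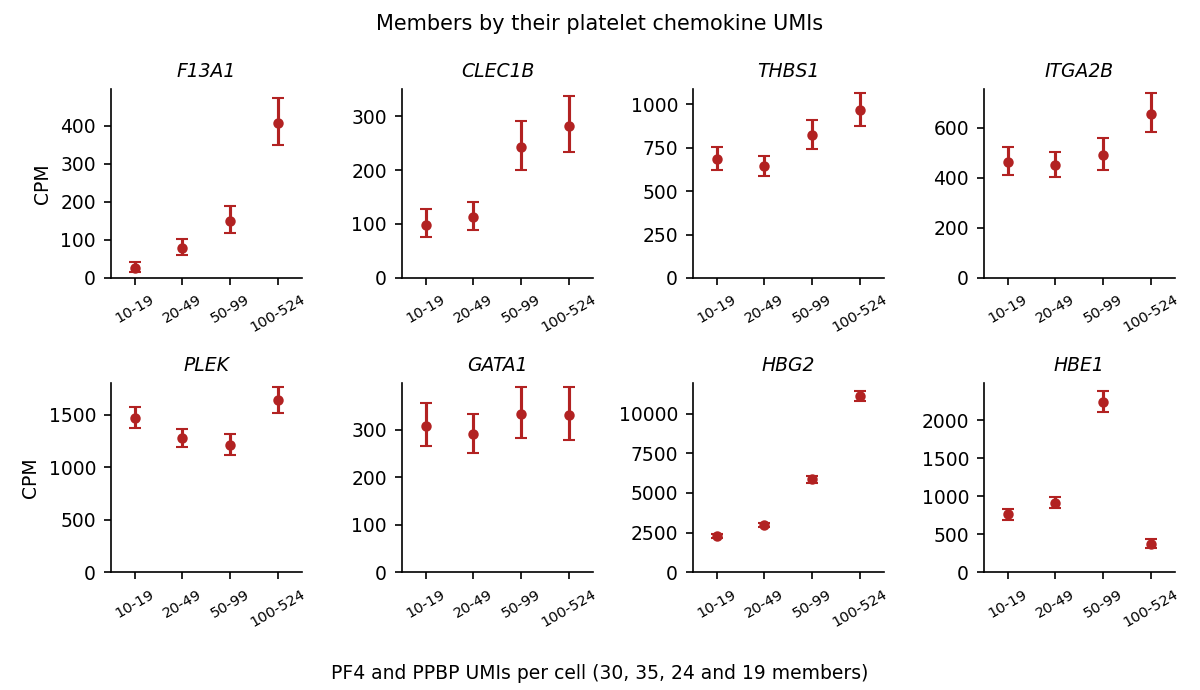
Summed level of 8 genes in CPM, with exact Poisson 95% intervals, in members grouped by their UMIs of *PF4* and *PPBP* (30, 35, 24 and 19 cells). *F13A1* was 26.0 CPM in the lowest class and 407 in the highest, and *HBG2* 2302 and 11120, while *GATA1* lay between 291 and 334 in all 4.

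Members were unevenly spread over the hashtags. They were 47 of 2136 cells kept in hashtag 0252 (2.20%, 1.62 to 2.92%), 44 of 1996 in 0253 (2.20%, 1.61 to 2.95%), 7 of 1847 in 0254 (0.379%, 0.153 to 0.779%) and 10 of 1571 in 0255 (0.637%, 0.306 to 1.17%). The first 2 hashtags had shares that overlapped, as did the last 2, and the intervals of the pairs did not overlap. The highest share was 5.82 times the lowest, or 3.46 times without hashtag 0254. Median depths of the cells kept were 18557, 18769.5, 18099 and 17621 UMIs, close to each other. Since each hashtag was 1 pool of wells, differences between pools and between coatings cannot be told apart, and the coatings behind the numbers are not given in the sources used here.

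The wider sets of cells were also larger in hashtags 0252 and 0253, although among them hashtag 0255 had the lowest share of markers and of globin. Cells with at least 10 UMIs of the other megakaryocyte markers were 13.4% (12.0 to 14.96%), 12.7% (11.3 to 14.3%), 4.87% (3.94 to 5.96%) and 2.86% (2.10 to 3.81%) of hashtags 0252 to 0255. Globin-positive cells were 9.13, 9.67, 5.52 and 3.44%. Among cells with at least 10 marker UMIs, members were 16.0, 16.9, 7.78 and 22.2%, and among globin-positive cells 22.6, 21.2, 6.86 and 18.5%. In hashtag 0254 the last of these shares (2.80 to 13.6%) lay below those of 0252 (16.9 to 29.1%) and 0253 (15.7 to 27.7%), while hashtag 0255, with 54 globin-positive cells, overlapped all 3 (9.25 to 31.4%). Cells with any UMI of the chemokines were 9.69, 10.5, 6.01 and 6.17%.

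**Figure D5:**
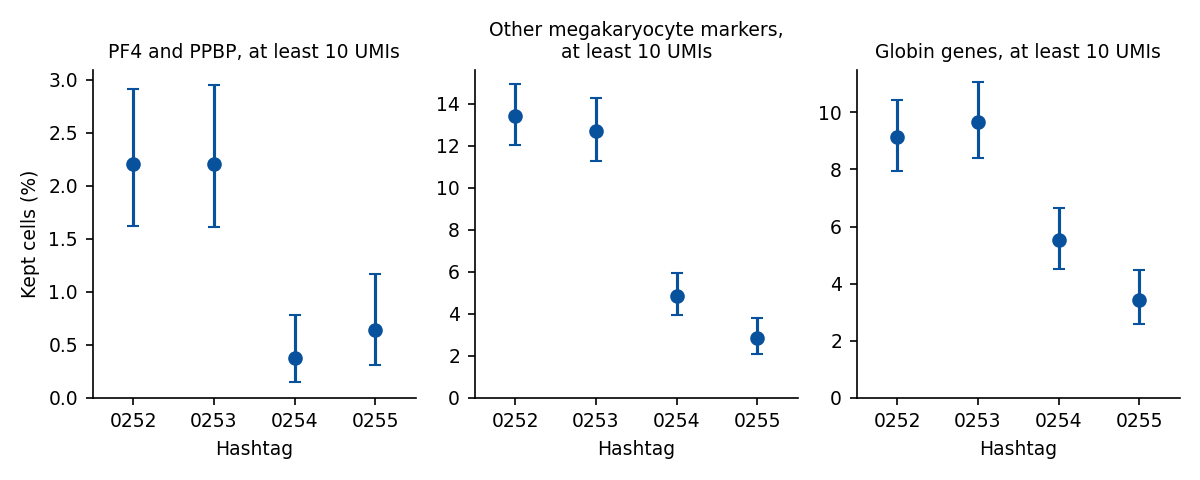
Share of kept cells of each hashtag, in percent with exact 95% intervals, that were members (left), had at least 10 UMIs of the other megakaryocyte markers (middle) or at least 10 globin UMIs (right). Hashtags 0252 and 0253 lay above 0254 and 0255 in all 3 panels, with 2.20 and 2.20% against 0.379 and 0.637% for the members.

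Within the members, several of the genes that differed most between hashtags were carried by few cells. *SPP1* had 24, 61, 103 and 0 UMIs in hashtags 0252 to 0255, *APOC1* 18, 52, 30 and 0, *C1QB* 4, 5, 24 and 0, *C1QC* 19, 26, 19 and 0, *LSP1* 46, 60, 35 and 1 and *IFI27* 2, 2, 13 and 0. *TFPI2* had all its 160 UMIs in hashtag 0252. *ZFP36L2* had 73, 98, 10 and 0 UMIs and *S100A9* 56, 83, 0 and 0. The 5 highest members held 92.1% of the *S100A9* UMIs, 93.9% of *C1QB* and 90.6% of *C1QC*, but *APOC1*, *LSP1* and *ZFP36L2* were found in 31, 35 and 38 members. The last 2 hashtags hold 7 and 10 members, so a single cell can set such a count. Megakaryocyte genes also varied between the pools. *F13A1* was 148, 156, 33.6 and 175 CPM and *GP1BA* 148, 165, 78.4 and 277, whereas *GP9*, *THBS1* and *GFI1B* kept within the ranges given above.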

How the data were processed

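The authors ran Cell Ranger 6.0.1 at default parameters against hg19 and deposited UMI counts, neither normalized nor pooled, for 32738 genes and 4 hashtags in 10836 barcodes, with a hashtag call per barcode (8488 single, 1339 doublets, 1009 negative). The caller behind these calls is not given in the sources used here. Single-hashtag cells with at most 36000 gene UMIs, 6000 genes and 18% mitochondrial UMIs were kept, and Scrublet calls (expected rate 6%) were not removed. Globin-positive means at least 10 UMIs over 10 globin genes. UMIs were summed per group of cells and given as CPM. Log2 ratios used a pseudocount of 1 CPM and genes with at least 10 CPM in either group. *TPSB2* of the marker lists was not found in the feature list.

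The members, the markers and the gene lists were chosen with earlier results of these data known. Genes named are those of the lists that carry a role, the 25 highest and 10 lowest against other cells, the 10 largest ratios each way for members without globin and for the chemokine classes, and the 10 that differed most between hashtags, of which 1 transcript known only by a clone name is not printed. Some genes of these lists are not reported here. Genes from the comparison of all members with globin-positive cells, and *HBE1*, *HBZ* and others singled out for few cells, were chosen after their values were seen. Scanpy 1.11.5 ran Scrublet, and scipy 1.17.1, numpy 2.4.6, pandas 2.3.3, matplotlib 3.10.9 and Python 3.11.15 served for the rest. Steps were tested on simulated data. Alternatives were other UMI limits, a limit in CPM, other cell limits, Scrublet removal, each hashtag left out, thinning to 5000 UMIs, another pseudocount, other gene filters, other reference cells and a higher globin limit. With 2 samples of different kinds in 1 experiment, RNA and hashtags, no test between groups was run.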

Additional observations from a re-analysis of the deposited data

Results flagged for a closer look

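Cells that met the chemokine rule were also found among barcodes that the reported comparisons left out, of which those over the limit on UMIs or genes entered only an alternative setting, and no control level could be set beside them because no hashtag is tied to the uncoated plates in the sources used here. Of the 397 single-hashtag barcodes over the limit on UMIs or genes, 37 met it (9.32%, 6.65 to 12.6%), with a median of 49877 UMIs and 100 UMIs of *PF4* and *PPBP*. All 37 were globin-positive, and 14, 22, 1 and 0 of them carried hashtags 0252, 0253, 0254 and 0255. *PF4* was 297 CPM in these cells, with 574 UMIs in 16 of them, against 31.3 CPM in the members, and the 3 highest cells held 66.7% of those UMIs. *ITGA2B* was 389 CPM and *TUBB1* 211. *MPO* was 1382 CPM against 191 in the members and 930 in the other barcodes over the limit, and 27 of the 37 had at least 10 UMIs of neutrophil markers. Scrublet called 1 of these 37 (2.70%) and 32 of the 360 other barcodes over the limit (8.89%). Large cells and droplets with more than a single cell cannot be told apart by UMI number here.

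Among called doublets within the limits, 22 of 834 met the rule (2.64%, 1.66 to 3.97%), and 118 of their 136 *PF4* UMIs were in a single barcode. Of the 541 single-hashtag cells over the mitochondrial limit alone, 9 met it (1.66%, 0.763 to 3.13%). Of 809 called negatives within the limits 0 met it, which allows a share of up to 0.371%.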

How the results depend on the processing

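Members and the cells compared with them came from the same 4 hashtag pools, but no paired test was run, since 1 library without replicates was measured. Values within each hashtag stand beside the pooled ones. The share of members was 1.79% from 5 UMIs, 1.03% from 20, 0.570% from 50, 0.951% (7 of 736 cells) at a mitochondrial limit of 10% and 1.82% without a limit on UMIs or genes, and 1.13 to 1.77% with each hashtag left out. The ratio of highest to lowest hashtag was 3.46 to 5.82 with a hashtag left out and at most 7.63 otherwise. Against other cells, the genes higher numbered 1131 at the 10% limit, 1061 without a gene filter and 330 from 50 CPM (673 to 737 with a hashtag left out), and the genes lower 2158, 1943 and 219 under the same settings, 262 without a limit on UMIs or genes, 1512 thinned, 600 with a pseudocount of 5 CPM (967 to 1140). Against globin-positive cells, genes higher numbered 2116 from 20 chemokine UMIs, 1967 thinned, 1944 unfiltered, 225 from 50 CPM, 471 with globin from 50 UMIs and 319 for all members (1193 to 2229), and genes lower 3041 thinned, 3955 unfiltered, 174 from 50 CPM, 400 with globin from 50 UMIs and 240 for all members (1156 to 1991). Without a limit on UMIs or genes the log2 ratios against other cells were -0.18 for *CLC*, -0.69 for *PRTN3* and -0.63 for *AZU1*. Without hashtag 0253, which leaves 3 members without globin, the log2 ratios against globin-positive cells reversed to -0.58 for *A2M*, -2.89 for *F13A1* and -2.82 for *CEBPA*, and without hashtag 0252 they were 4.16, 5.28 and 4.04. No other gene reversed among the 41 recomputed against other cells and the 20 recomputed for members without globin. *C1QC* fell under 2-fold from 20 chemokine UMIs (0.56), from 500 CPM (0.52) and without Scrublet calls (0.91), *GAD1* when thinned (-0.92), and *SECISBP2* (-0.08) and *SOCS1* (-0.02) with globin from 50 UMIs. The other genes named from the lists were not recomputed. The causes were not tested. No value could be had from 50 chemokine UMIs or the 10% limit against globin-positive cells, nor for the hashtag ratio at that limit, since a group held 0 members.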
